A study of Mus musculus with 12 samples.

Results

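Mitochondrial fusion and fission genes were followed in mouse cumulus cells, the somatic cells that surround and nourish the oocyte in the follicle. The rule took the rows of the deposited gene table named Mfn1, Mfn2, Opa1, Dnm1l, Fis1 and Mff, which are 6 of its 23997 rows. All 6 also passed the filter on low values, which asked for 3 or more libraries with 1 FPKM or more and left 11196 genes for the tests. FPKM counts sequenced fragments and is scaled for library depth and for transcript length. Levels of different genes can therefore be set side by side only as far as the transcript lengths used are right.

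Mitochondria join and divide continuously. The mitofusins Mfn1 and Mfn2 are GTPases of the outer membrane that tether neighbouring mitochondria and fuse their outer membranes, and Opa1 is the dynamin-like GTPase that fuses the inner membranes and shapes the cristae. Division is carried out by Dnm1l (also called Drp1), a dynamin-like GTPase that is recruited from the cytosol to the outer membrane, where Mff is a main receptor and Fis1 a tail-anchored adaptor. In cumulus cells this machinery works in a tissue that supplies the oocyte with metabolites through gap junctions.

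The study set cumulus cells of ClpP knockout (KO, ClpP-/-) against those of wild type (WT) C57BL/6J female mice at 3 and at 6 months of age. Clpp encodes the proteolytic subunit of a protease of the mitochondrial matrix that takes part in the mitochondrial unfolded protein response. There were 4 groups of 3 libraries, 12 in all: 3-month WT, 3-month KO, 6-month WT and 6-month KO. All mice, WT included, were primed with the gonadotropin PMSG at a dose of 5 IU, which drives follicle growth, and complexes of oocyte and cumulus cells were collected 44 h later by one label and 48 h later by another. Each library came from 100 cells of 1 mouse, amplified by Smart-Seq2. No cell type restriction of the knockout is given, so the deletion is not known to be limited to the cumulus cells.

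Clpp checked the genotype labels. Its FPKM was 88.2, 130 and 146 in the 3-month WT and 129, 124 and 114 in the 6-month WT libraries, against 6.63, 1.099 and 2.07 in the 3-month KO and 1.63, 0.769 and 6.32 in the 6-month KO libraries. All 6 KO libraries lay below all 6 WT libraries. The log2 difference of KO minus WT was -5.03 at 3 months (SE 0.54, limma adjusted p = 0.00872) and -5.25 at 6 months (SE 0.54, limma adjusted p = 0.00279). With the replicate number as a block in a fit of the compared groups alone, these differences were the same in size, but Clpp did not pass (limma adjusted p = 0.169 and 0.188). The 6-month difference did not pass in the fit of the compared groups without the block either (limma adjusted p = 0.0547), while the 3-month one did (limma adjusted p = 0.0381). At 3 months it also missed the threshold without library 2 of the WT group or without library 2 or 3 of the KO group (limma adjusted p = 0.108, 0.0621 and 0.0719). At least 9 of the 10 granulosa and cumulus marker genes reached 1 FPKM in every library. A log2 score for markers of other ovarian cells averaged the theca and stromal, the leukocyte and blood, and the endothelial lists. Library 3 of the 3-month KO, of the 6-month WT and of the 6-month KO group scored highest. These 3 were at 1.70 to 2.46, against -1.41 to 0.486 in the other 9. Theca and stromal markers summed to between 127 and 1687 FPKM there and to between 0.443 and 164 FPKM in the other 9, and oocyte markers to between 12.6 and 194 against between 0.842 and 5.73 FPKM. Leukocyte and blood markers summed to between 784 and 1590 FPKM in those 3 and to between 4.49 and 751 FPKM in the other 9. Library 3 of the 3-month WT group, 1 of these 9, came close to the 3 with 751 FPKM of leukocyte and blood markers, and its 164 FPKM of theca and stromal markers exceeded the 127 FPKM of 6-month WT library 3. A surface epithelium list was not part of the score. On that list 6-month WT library 1 scored highest, at 1.73 on the log2 scale, and the 3 came next, at 0.777 to 1.36. Its summed FPKM was highest in 3-month WT library 2, above the 59.9 to 129 FPKM of the 3. The 3 are therefore high on the lists in the score, and the other 9 are not all low in surface epithelium markers. The table gives no sequencing depth, and the spacing of low FPKM values put it at between about 11800000 and 18600000 fragments per library. Small RNA entries held between 0.263% and 37.5% of the FPKM sums.

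The promoters of 4 members are shown first. They are those of both mitofusins, which share a part in outer-membrane fusion and differ in level, and those of Opa1 and Mff. The 3-month WT values of Opa1 and Mff stand apart from most of the others. Each sequence covers the 250 bases before a RefSeq start site (GRCm38.p6), read 5′ to 3′ on the gene's strand. The positions are chr3:32529232-32529481 on the plus strand for Mfn1, chr4:147904910-147905159 on the minus strand for Mfn2 (the furthest upstream of its 3 starts), chr16:29579084-29579333 on the plus strand for Opa1, and chr1:82724640-82724889 on the plus strand for Mff. Capitals mark matches to any of 4 motifs searched on both strands: the NRF1 core (GCGCA followed by its reverse complement), the ETS core CGGAAGT, the YY1 core AANATGGC and the cyclic AMP response element TGACGTCA.
Mfn1: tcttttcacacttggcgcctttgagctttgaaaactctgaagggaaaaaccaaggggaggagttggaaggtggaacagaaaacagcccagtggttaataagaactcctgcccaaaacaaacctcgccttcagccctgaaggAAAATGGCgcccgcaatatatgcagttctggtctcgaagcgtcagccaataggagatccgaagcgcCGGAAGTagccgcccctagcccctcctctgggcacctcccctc
Mfn2: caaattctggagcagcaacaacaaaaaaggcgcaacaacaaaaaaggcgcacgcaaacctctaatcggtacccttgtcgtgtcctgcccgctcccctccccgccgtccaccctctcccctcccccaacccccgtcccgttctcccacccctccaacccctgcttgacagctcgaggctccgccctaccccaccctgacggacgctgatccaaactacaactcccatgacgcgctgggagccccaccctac
Opa1: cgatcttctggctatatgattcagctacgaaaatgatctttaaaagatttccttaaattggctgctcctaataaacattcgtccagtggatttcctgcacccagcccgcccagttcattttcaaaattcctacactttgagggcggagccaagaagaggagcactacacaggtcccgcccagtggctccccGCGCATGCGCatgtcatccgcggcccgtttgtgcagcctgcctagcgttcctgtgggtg
Mff: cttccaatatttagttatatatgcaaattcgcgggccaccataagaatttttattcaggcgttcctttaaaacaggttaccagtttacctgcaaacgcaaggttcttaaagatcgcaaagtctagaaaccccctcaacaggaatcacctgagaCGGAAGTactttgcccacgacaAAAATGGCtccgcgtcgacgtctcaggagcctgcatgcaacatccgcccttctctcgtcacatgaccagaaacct

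NRF1, ETS-family factors and YY1 are known as regulators of many nuclear genes for mitochondrial proteins. The Opa1 promoter held the NRF1 core, which begins 59 bases before the start site and is found in 0.782% of the 32851 promoters searched in the same way. The Mfn1 and Mff promoters each held an ETS core (in 4.92% of promoters) and a YY1 core (in 3.91%). In Mfn1 they begin 43 and 109 bases before the start, and in Mff 97 and 75 bases before the first of its 2 starts. The overlapping window of the second Mff start held ETS cores 125 and 28 bases and a YY1 core 103 bases before that start. Fis1 had an ETS core 17 bases before the first of its 2 starts. The promoters of Mfn2 (3 starts) and Dnm1l (2 starts) held none of the 4, and no member held the cyclic AMP response element, which is in 1.55% of promoters. A match describes letters in these windows and was not tied to binding of a factor.

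**Figure D1:**
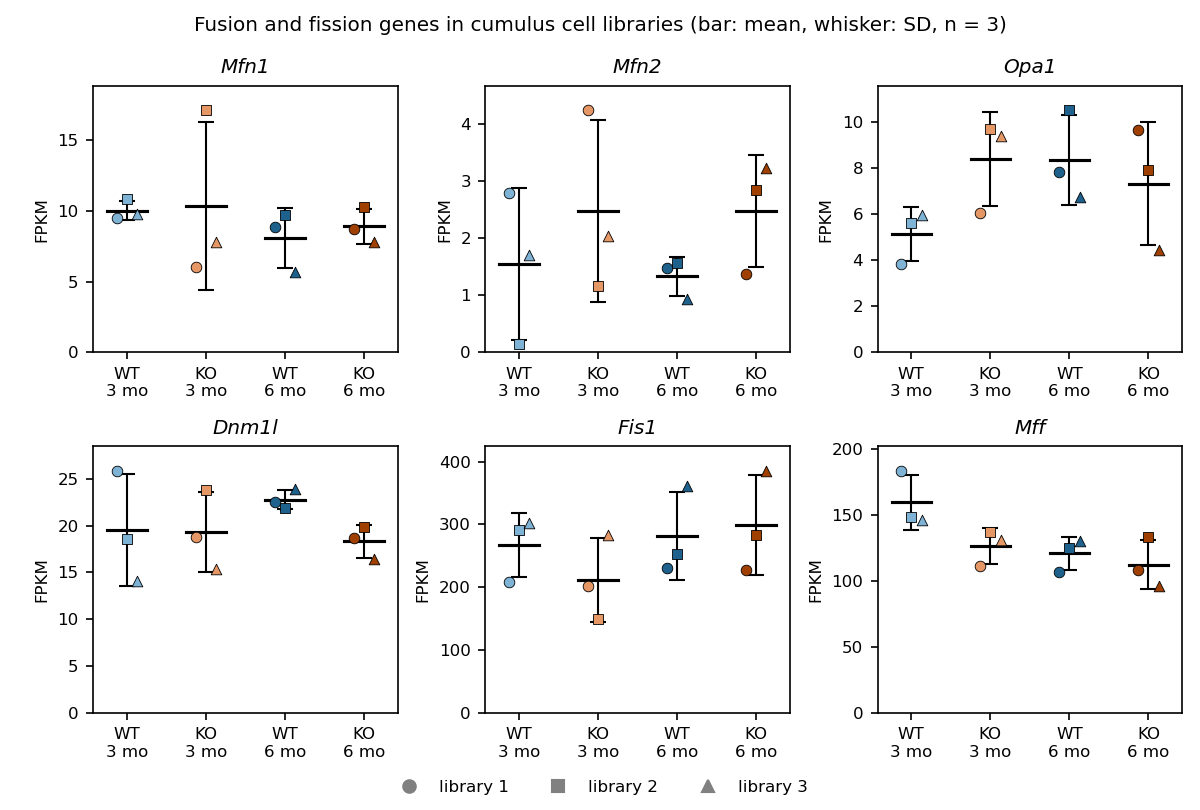
FPKM of the 6 genes (vertical axes, each from 0) in the 4 groups at 3 and 6 months (mo), with 1 point per library, a bar at the group mean and a whisker of 1 SD (n = 3). Mff sits between 146 and 183 FPKM in the 3-month WT libraries and between 95.8 and 137 FPKM in the other 9, and Mfn2 in 3-month WT library 2 is at 0.153 FPKM.

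Among the outer-membrane fusion genes, Mfn1 was the higher in all 12 libraries. Mfn1 (ENSMUSG00000027668.13, chr3:32529465-32579239 in GRCm38, plus strand) measured 9.48, 10.8 and 9.77 FPKM in the 3-month WT, 6.02, 17.1 and 7.82 FPKM in the 3-month KO, 8.84, 9.72 and 5.68 FPKM in the 6-month WT, and 8.73, 10.2 and 7.76 FPKM in the 6-month KO libraries. The 3-month KO group held the second lowest and the highest library of all, so its range contained all 3 WT libraries of that age. Group means were 10.02 ± 0.697 FPKM (SD, n = 3) in the 3-month WT and 10.3 ± 5.95 FPKM (SD, n = 3) in the 3-month KO. At 6 months they were 8.08 ± 2.13 FPKM in WT and 8.91 ± 1.25 FPKM in KO (SD, n = 3 each). The log2 difference of KO minus WT over both ages was 0.032, with a 95% interval from -0.52 to 0.59 (limma adjusted p = 0.983).

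Mfn2, which besides fusion links mitochondria to the endoplasmic reticulum, was the lowest of the 6 genes in every library. Mfn2 (ENSMUSG00000029020.13, chr4:147873599-147904704, minus strand) measured 2.80, 0.153 and 1.70 FPKM in the 3-month WT, 4.25, 1.15 and 2.04 FPKM in the 3-month KO, 1.48, 1.57 and 0.943 FPKM in the 6-month WT, and 1.371, 2.86 and 3.23 FPKM in the 6-month KO libraries. KO and WT overlapped at both ages, and library 2 of the 3-month WT group lay far below the rest. That library's value corresponds to about 8 fragments over the longest coding transcript, against a median of 114 fragments for Mfn2 over all libraries. The mean was 1.55 ± 1.33 FPKM in the 3-month WT and 2.48 ± 1.59 FPKM in the 3-month KO (SD, n = 3 each). It was 1.33 ± 0.340 FPKM in the 6-month WT and 2.48 ± 0.983 FPKM in the 6-month KO (SD, n = 3 each). The difference of KO minus WT had the same sign at both ages, 0.51 at 3 months and 0.55 at 6 months on the log2(FPKM + 1) scale, with an SE of 0.48 at each. Over both ages it was 0.53 (95% interval from -0.20 to 1.26, limma adjusted p = 0.792), and an exact permutation test within ages gave p = 0.14. The 3-month difference moved with single libraries: leaving out WT library 2 took it to 0.020 and KO library 1 to 0.17, whereas leaving out WT library 1 gave 0.88 and KO library 2 gave 0.81. Over both ages it was 0.28 (SE 0.29) without 3-month WT library 2. On this scale, a pseudocount of 1 shrinks the differences of so low a gene. With a pseudocount of 0.1 the 3-month difference was 1.05 with an SE of 0.84 (limma adjusted p = 0.809).

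Opa1, the inner-membrane fusion GTPase, had its lowest group mean in the 3-month WT libraries. Opa1 (ENSMUSG00000038084.16, chr16:29579334-29654884, plus strand) measured 3.82, 5.64 and 5.97 FPKM in the 3-month WT and 6.04, 9.73 and 9.41 FPKM in the 3-month KO libraries. It measured 7.82, 10.5 and 6.76 FPKM in the 6-month WT and 9.65, 7.92 and 4.43 FPKM in the 6-month KO libraries. At 3 months the KO and WT values did not overlap, although the highest WT and the lowest KO library, 5.97 and 6.04 FPKM, were nearly equal. Of the 9 libraries outside the 3-month WT group, 8 lay above all 3 of its libraries, and library 3 of the 6-month KO group was the exception. The share of all genes with such a pattern was not counted. The mean was 5.14 ± 1.16 FPKM in the 3-month WT and 8.39 ± 2.04 FPKM in the 3-month KO (SD, n = 3 each), a log2 difference of 0.61 (SE 0.34, 95% interval from -0.14 to 1.35, limma adjusted p = 0.771). At 6 months the means were 8.37 ± 1.94 FPKM in WT and 7.33 ± 2.66 FPKM in KO (SD, n = 3 each), a log2 difference of -0.20 (SE 0.34, limma adjusted p = 1.00). The 2 differences have opposite signs, and the test of genotype by age gave -0.81 (SE 0.48, limma adjusted p = 1.00), so they were not shown to differ.

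On the fission side, the GTPase Dnm1l was at a middle level with little spread. Dnm1l (ENSMUSG00000022789.15, chr16:16312230-16358959, minus strand) measured 25.9, 18.6 and 14.1 FPKM in the 3-month WT, 18.8, 23.8 and 15.3 FPKM in the 3-month KO, 22.5, 21.9 and 23.9 FPKM in the 6-month WT, and 18.7, 19.9 and 16.4 FPKM in the 6-month KO libraries. At 3 months the KO range lay inside the WT range, and at 6 months all 3 KO libraries were below all 3 WT libraries. The means were 19.5 ± 5.94 FPKM in WT and 19.3 ± 4.28 FPKM in KO at 3 months (SD, n = 3 each). At 6 months they were 22.7 ± 1.02 FPKM in WT and 18.3 ± 1.77 FPKM in KO (SD, n = 3 each), a log2 difference of -0.30 (SE 0.28, 95% interval from -0.90 to 0.30, limma adjusted p = 1.00). The gene overlaps an antisense gene, Gm49521, over 9757 bp, and the library kit does not mark strand, so reads of the 2 cannot be told apart there. Shorter overlaps on the opposite strand, of 321 bp with Gm13156 for Mfn2 and of 280 bp with C430014B12Rik for Mff, carry the same limit. Mff also contains Gm28941, an intronic gene of 1017 bp on the same strand.

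Fis1, the small outer-membrane adaptor, had the highest FPKM of the 6 genes in every library. Fis1 (ENSMUSG00000019054.13, chr5:136953275-136966234, plus strand) measured 208, 291 and 303 FPKM in the 3-month WT, 202, 149 and 283 FPKM in the 3-month KO, 231, 252 and 361 FPKM in the 6-month WT, and 228, 283 and 386 FPKM in the 6-month KO libraries. KO and WT overlapped at both ages. The means were 267 ± 51.7 FPKM in WT and 211 ± 67.4 FPKM in KO at 3 months, and 281 ± 69.7 FPKM in WT and 299 ± 80.1 FPKM in KO at 6 months (SD, n = 3 each). The largest difference for Fis1 was that of 6 minus 3 months in KO, 0.51 on the log2 scale (SE 0.30, limma adjusted p = 0.757). The 3 libraries that scored highest in markers of other ovarian cells held 283, 361 and 386 FPKM of Fis1, each the highest of its group, against between 149 and 303 FPKM in the other 9. Of those 9, library 3 of the 3-month WT group, also rich in leukocyte and blood markers, held the highest value, 303 FPKM. The part of those cells in these values was not tested.

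Mff, the receptor for Dnm1l, had its highest group mean in the 3-month WT libraries. Its within-group SD on the log2 scale, pooled over the 4 groups, was the smallest of the 6. Mff (ENSMUSG00000026150.14, chr1:82724890-82752394, plus strand) measured 183, 148 and 146 FPKM in the 3-month WT, 111, 137 and 131 FPKM in the 3-month KO, 107, 125 and 130 FPKM in the 6-month WT, and 108, 133 and 95.8 FPKM in the 6-month KO libraries. All 3 libraries of the 3-month WT group lay above all 9 others, whose highest was 137 FPKM. The share of all genes that split 3 against 9 libraries in this way was not counted, so the split is a description. The mean was 159 ± 20.8 FPKM in the 3-month WT against 126 ± 13.5 FPKM in the 3-month KO, and 121 ± 12.2 FPKM in the 6-month WT against 112 ± 18.8 FPKM in the 6-month KO (SD, n = 3 each). KO minus WT was -0.33 on the log2 scale at 3 months (SE 0.22, 95% interval from -0.81 to 0.14, limma adjusted p = 0.802) and -0.11 at 6 months (SE 0.22, limma adjusted p = 1.00). Over both ages it was -0.22, with an exact permutation p of 0.065 within ages, where 400 arrangements allow a smallest p of 0.005.

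The comparisons of KO with WT asked whether loss of ClpP moves with the level of these transcripts. At 3 months none of the 6 members passed an adjusted p of 0.05, and 0.00893% of all genes tested did, which is Clpp alone. The ranges of both genotypes were apart for 2 members, Opa1 (higher in KO) and Mff (lower in KO), and for 10.2% of all genes (5.02% higher and 5.22% lower in KO). At 6 months no member passed, against 0.0268% of all genes, and the ranges were apart for 1 member, Dnm1l (lower in KO), against 6.8% of all genes (3.79% higher and 3.01% lower). Over both ages none passed, against 0.0179% of all genes, and no member had all 6 KO libraries apart from all 6 WT libraries, against 0.259% of all genes (0.196% higher and 0.0625% lower). In each of these, 3 members lay above 0 and 3 below. The members' median log2 difference was -0.040 at 3 months, -0.014 at 6 months and -0.055 over both ages, beside medians of 0.012, 0.014 and 0.0081 over all genes. Exact permutation p-values over both ages were 0.885 for Mfn1, 0.395 for Opa1, 0.345 for Dnm1l and 0.54 for Fis1.

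Intervals show the sizes these libraries could not separate from 0. With 3 libraries a group, the members' 95% intervals at 1 age had a median width of 1.41 on the log2 scale. For Mff, the gene with the narrowest one, the interval at 6 months ran from -0.59 to 0.36, and for Mfn2, the gene with the widest, from -0.49 to 1.58. A p above the threshold therefore does not show equal levels in KO and WT. In bulk libraries of 100 cells, fewer cells of a type and less RNA per cell cannot be told apart.

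**Figure D2:**
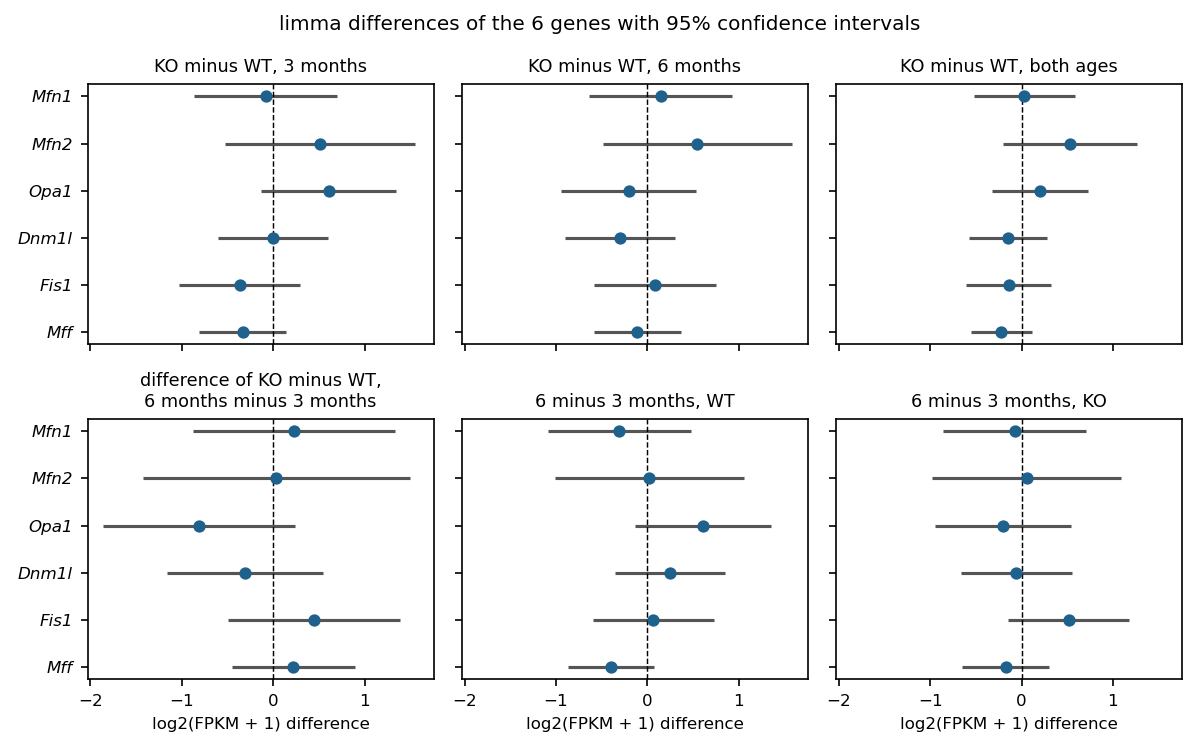
Differences of the 6 genes in the 6 comparisons, on the log2(FPKM + 1) scale, with points at the limma estimate and lines for 95% confidence intervals. Every interval crosses 0, and the estimates farthest from 0 among the differences between 2 groups are those of Opa1 at 3 months and between ages in WT, both 0.61.

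Age was compared within each genotype. In WT, none of the 6 members passed, against 0.00893% of all genes. Opa1 was higher at 6 than at 3 months by 0.61 on the log2 scale (SE 0.34, 95% interval from -0.14 to 1.35, limma adjusted p = 0.708), and Mff was lower, at -0.40 (SE 0.22, 95% interval from -0.87 to 0.078, limma adjusted p = 0.702). These 2 members did not overlap between ages in WT, as did not 15.7% of all genes (7.94% higher and 7.81% lower). The same 3-month WT libraries enter this comparison and that of KO with WT at 3 months, so the alike directions of Opa1 and of Mff in both rest on shared values. In KO, no member passed, against 0.0179% of all genes, and no member's ages were free of overlap, against 12.8% of all genes (6.82% higher and 5.98% lower). There the differences of 6 minus 3 months were -0.20 for Opa1 and -0.17 for Mff. The test of genotype by age called no member and 0.00893% of all genes. At an unadjusted p of 0.05 no member was past the threshold in any of the 6 comparisons. Of all genes, 6.8% were at 3 months, 1.22% at 6 months, 5.96% over both ages, 2% for genotype by age, 7.44% for age in WT and 6.48% for age in KO.

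The order of the levels was nearly the same in all groups. By mean FPKM over the 12 libraries it ran Fis1 (265), Mff (130), Dnm1l (19.97), Mfn1 (9.33), Opa1 (7.31) and Mfn2 (1.96). Fis1 was above 95.3% of all genes tested, Dnm1l above 68.9% and Mfn2 above 18.9%. Each gene was above the next in 12 of 12 libraries, except Mfn1 and Opa1. For those with 12 of 12, an exact sign-flip permutation test over the libraries gave an adjusted p of 0.00061 over the 5 neighbouring pairs. The pairs and their direction were sorted from these same 12 libraries, and the p-values of all 5 are not corrected for that. FPKM also depends on the transcript length used, and the gene models behind the values are not named. Estimated fragments over the longest coding transcript had medians of 3815 for Fis1 (948 nt) and 4049 for Mff (2087 nt). The lead of Fis1 over Mff in FPKM therefore depends on the lengths used. Mfn1 exceeded Opa1 in 7 of 12 libraries, by 0.32 ± 0.47 on the log2 scale (SD, n = 12, exact permutation test, adjusted p = 0.042). Leaving out 1 library, an alternative added after seeing the data, left this pair short of the threshold in 7 of 12 cases, at an adjusted p of 0.0527 to 0.084 in the exact permutation test. Those were the libraries 1, 2 and 3 of the 3-month WT, 2 of the 3-month KO, 1 of the 6-month WT, and 2 and 3 of the 6-month KO group. Whether Mfn1 over Opa1 passes the threshold therefore rests on single libraries. The mean log2 difference stayed above 0 in all 12 cases, at 0.25 to 0.37. Counted by group, Mfn1 was above Opa1 in 3 of 3 libraries of the 3-month WT, 1 of 3 of the 3-month KO, 1 of 3 of the 6-month WT and 2 of 3 of the 6-month KO group, and a difference between groups in this order was not tested.

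**Figure D3:**
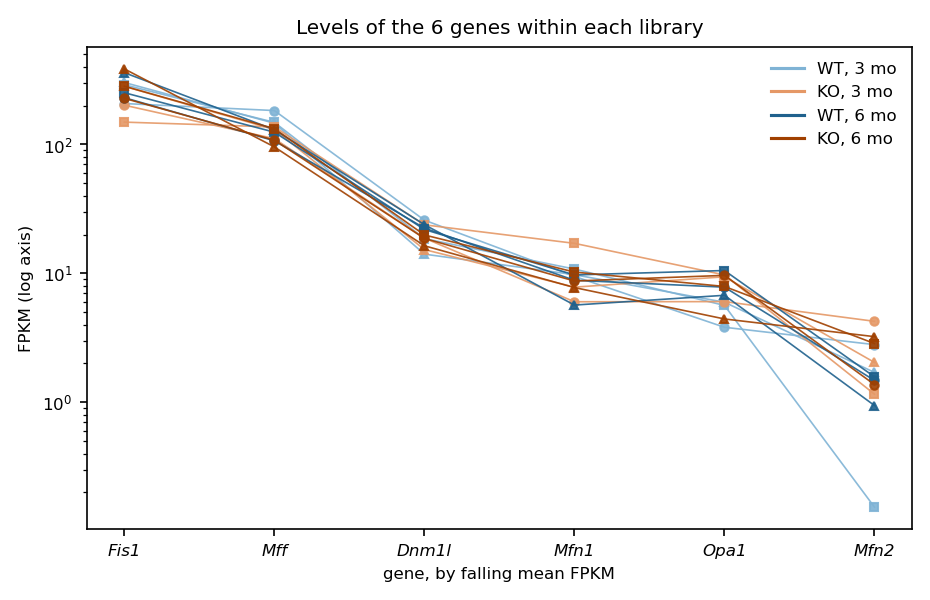
FPKM of the 6 genes (log axis) in the order of their means, with 1 line per library, coloured by group. The lines fall from Fis1 to Mfn2 in all libraries and cross at Mfn1 and Opa1, where Mfn1 is the higher in 7 of 12 libraries.

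Outer-membrane adaptor transcripts made up most of the summed FPKM. Such shares, and the ratios between genes below, depend on the transcript lengths used for FPKM. Fis1 and Mff together held between 84.7% and 93.8% of the 6 genes' summed FPKM, with a median of 90.7%. The FPKM ratio of Mff to its GTPase Dnm1l ran from 4.76 to 10.4, and that of Fis1 to Dnm1l from 6.26 to 23.6. Mff stayed below Fis1 in all 12 libraries, at between 0.248 and 0.917 of its FPKM. The ratio of Mfn1 to Mfn2 was above 1 in all 12 libraries, with a median of 5.86 and a range from 1.42 to 70.4, the highest being the library with about 8 fragments of Mfn2.

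The members differed in how much they varied within groups, with the spread pooled over the 4 groups. The within-group SD on the log2 scale was 0.18 for Mff, 0.27 for Dnm1l, 0.37 for Opa1, 0.37 for Fis1, 0.41 for Mfn1 and 0.60 for Mfn2, beside a median of 0.50 over all genes tested. A smaller SD was found for 1.28% of all genes in the case of Mff and for 65.3% in the case of Mfn2. Over all 12 libraries, the ratio of the highest to the lowest FPKM was 1.84 for Dnm1l and 1.92 for Mff, and 27.7 for Mfn2.

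No member followed another closely. Over the 15 pairs of members and 12 libraries, no Pearson correlation of log2 values passed an adjusted p of 0.05. The pair with the smallest p was Mfn1 and Fis1 (r = -0.54, permutation p = 0.0707, adjusted p = 0.653, and rho = -0.20, permutation p = 0.544, adjusted p = 0.835), and r was 0.22 without the 2 libraries farthest from the median of Mfn1. The highest rank correlation was that of Mfn1 and Mff (rho = 0.615, permutation p = 0.0368, adjusted p = 0.553, and r = 0.36, permutation p = 0.248, adjusted p = 0.653), with r at 0.55 without the 2 farthest libraries. Both mitofusins were at r = -0.34 with each other (permutation p = 0.269, adjusted p = 0.653) and rho = -0.31 (permutation p = 0.319, adjusted p = 0.835), with r at -0.65 without the 2 farthest libraries and at -0.43 within groups.

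Other genes of the table were ranked by their Pearson correlation with each member over the 12 libraries. Candidates were 6758 genes (6759 for Mfn2) with a mean of at least 5 FPKM. Predicted, clone-named and small RNA entries among them were passed over. These values are a description over libraries that share depth and cell mixture. The highest of so many correlations over 12 libraries are raised by selection, and the level that selection alone would give was not computed. Most alike were Heatr3 (r = 0.932), Impdh2 (0.922), the rate-limiting enzyme of guanine nucleotide synthesis, and Mfsd5 (0.919) for Mfn1. For Mfn2 they were Aldh3b1 (0.865), the mitochondrial ribosomal protein gene Mrpl10 (0.845) and Mmab (0.844). Opa1 was most like Rfc1 (0.893), a subunit of the clamp loader of DNA replication, Knop1 (0.854) and Arhgdig (0.838). Dnm1l was most like Hiat1 (0.843), the ubiquitin ligase scaffold Cul3 (0.817) and the calpain gene Capn2 (0.785). Fis1 was most like Rnasek (0.929), Sh3bgrl3 (0.927) and Rps27rt (0.923), the last a near copy of another ribosomal protein gene and so uncertain. Mff was most like Bnip2 (0.889), Bbs5 (0.888) and Nipsnap3b (0.883).

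Fis1 also differs from the others in transcript length, with coding transcripts of 601 to 948 nt against up to 6230 nt for Opa1. A length index was therefore computed per library, chosen after seeing the data: the median log2 deviation of 428 genes with a short single transcript minus that of 1054 genes with a long one. It ran from -0.48 in 3-month WT library 1 to 0.45 in 6-month KO library 3. Fis1 rose with it over the 12 libraries (Pearson r = 0.683, permutation p = 0.0138, adjusted p = 0.0829 over the 6 members, and Spearman rho = 0.748, permutation p = 0.00707, adjusted p = 0.0424). Without the 2 libraries farthest from the median index r was 0.556, within groups it was 0.828, and without the 3 libraries high in markers of other ovarian cells it was 0.367. The relation therefore rests in part on those 3 libraries. Dnm1l had negative values that did not pass (r = -0.543, rho = -0.469, permutation p = 0.0696 and 0.129, adjusted p = 0.209 and 0.388). Its r was -0.301 without the 2 farthest libraries, -0.552 within groups and -0.764 without the 3 libraries high in markers of other ovarian cells. With the index as a covariate, Fis1 at 3 months was at -0.40 in KO minus WT with an SE of 0.21, against -0.37 and 0.30 without it (limma adjusted p = 0.593 and 0.829).

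**Figure D4:**
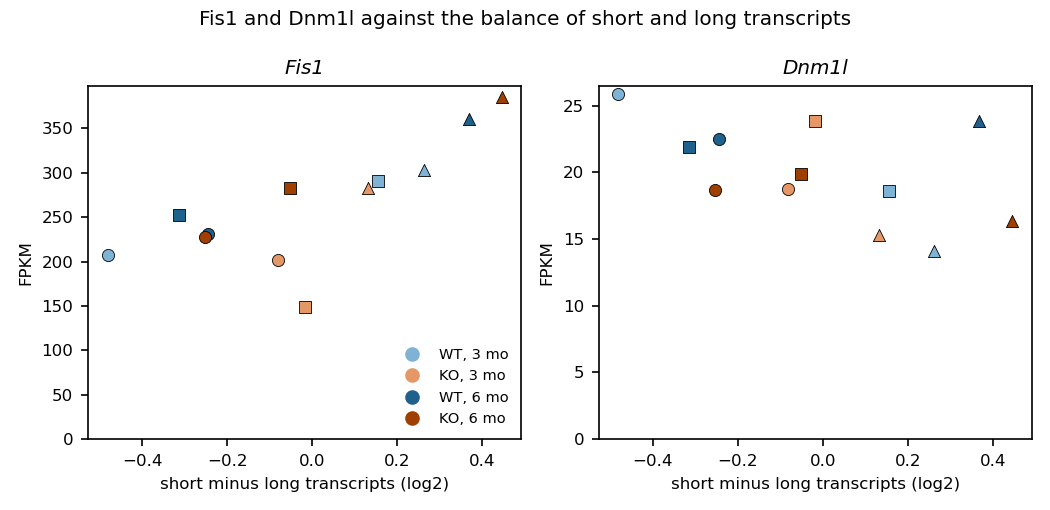
FPKM of Fis1 and of Dnm1l (vertical axes, from 0) against the length index of each library (horizontal axes, log2), with colours for groups and circles, squares and triangles for libraries 1, 2 and 3. Fis1 is highest, at 361 and 386 FPKM, in the 2 libraries with the highest index.

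Genes around the core machinery were taken from 5 lists of 49 genes, of which 48 were in the table under their symbols and 44 passed the filter. None of the 44 passed an adjusted p of 0.05 in any of the 6 comparisons. At an unadjusted p of 0.05, 3 of 44 were past the threshold at 3 months (6.8% of all genes), 1 at 6 months (1.22%) and 3 over both ages (5.96%). For genotype by age it was 1 (2% of all genes), for age in WT 0 (7.44%) and for age in KO 5 (6.48%). Of the fission adaptors and effectors, 5 of 8 lay above 0 at 3 months, with a median of 0.44, and 2 of 8 at 6 months, with a median of -0.14. For 6 minus 3 months in KO, 7 of these 8 lay below 0, with a median of -0.61 beside 0.010 over all genes. Of all genes, 50.8% lay above 0 there. This was the list median farthest from 0 in any comparison, and the other lists had medians from -0.19 to 0.16 for age in KO. For age in WT, 4 of the 8 fission adaptors and effectors lay below 0, with a median of 0.0054. The same 3-month KO libraries enter the medians of 0.44 and -0.61 of this list, so the 2 rest on shared values. They also enter genotype by age, where 7 of the 8 lay below 0, with a median of -0.44. Of all genes, 50.8% lay above 0 in that comparison. The regulators of outer-membrane fusion and mitofusin turnover had 3 of 7 above 0 at 3 months (median -0.11) and 5 of 7 at 6 months (median 0.12). Of the genes for Opa1 processing and cristae, 9 of 14 were above 0 at 3 months (median 0.14) and 7 of 14 at 6 months (median 0.012). Dnm1l modifiers had medians of 0.070 at 3 months and -0.012 at 6 months over 10 genes. Genes of mitochondrial transport along microtubules had -0.21 and 0.041 over 5 genes.

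Within the Opa1 processing list, the smallest p-values over both ages were those of Parl and Afg3l2, which are named for that reason. Afg3l2, a subunit of the m-AAA protease, measured 7.88, 9.01 and 7.69 FPKM in the 3-month WT, 14.9, 16.5 and 10.2 FPKM in the 3-month KO, 8.51, 8.93 and 6.41 FPKM in the 6-month WT, and 11.05, 11.03 and 11.6 FPKM in the 6-month KO libraries. All 6 KO libraries were above all 6 WT libraries, as in 0.196% of all genes, but the gene was picked for its small p and did not pass. Its log2 difference over both ages was 0.57 (SE 0.19, limma unadjusted p = 0.0113, adjusted p = 0.783). Parl, the rhomboid protease that cleaves Pink1 and Pgam5, measured 72.7, 52.8 and 97.1 FPKM in the 3-month WT, 96.0, 111 and 108 FPKM in the 3-month KO, 64.2, 52.5 and 75.8 FPKM in the 6-month WT, and 104, 94.7 and 157 FPKM in the 6-month KO libraries. KO and WT overlapped at 3 months and not at 6 months, where 6.8% of all genes did not. The log2 difference over both ages was 0.70 (SE 0.20, limma unadjusted p = 0.00467, adjusted p = 0.783).

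In the other lists the 2 genes with the smallest p over both ages had larger p-values. Mtfr2, which promotes fission, had means of 14.3 and 7.54 FPKM in WT and KO at 3 months and of 8.49 and 4.90 FPKM at 6 months, a log2 difference over both ages of -0.97 (SE 0.43, limma unadjusted p = 0.0457, adjusted p = 0.783). Its relative Mtfr1l was at 0.35. Pink1, the kinase that marks damaged mitochondria for removal, was at 0.68 (SE 0.37), and its 3-month KO libraries spread from 11.3 to 41.3 FPKM. Usp30, a deubiquitinase of the outer membrane, was at -0.35. Ppp3ca, the calcineurin subunit that activates Dnm1l, was at 0.33, and the phosphatase Pgam5 at 0.25. Rhot1, the GTPase that couples mitochondria to motor proteins, was at 0.34, and its adaptor Trak2 at -0.36.

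**Figure D5:**
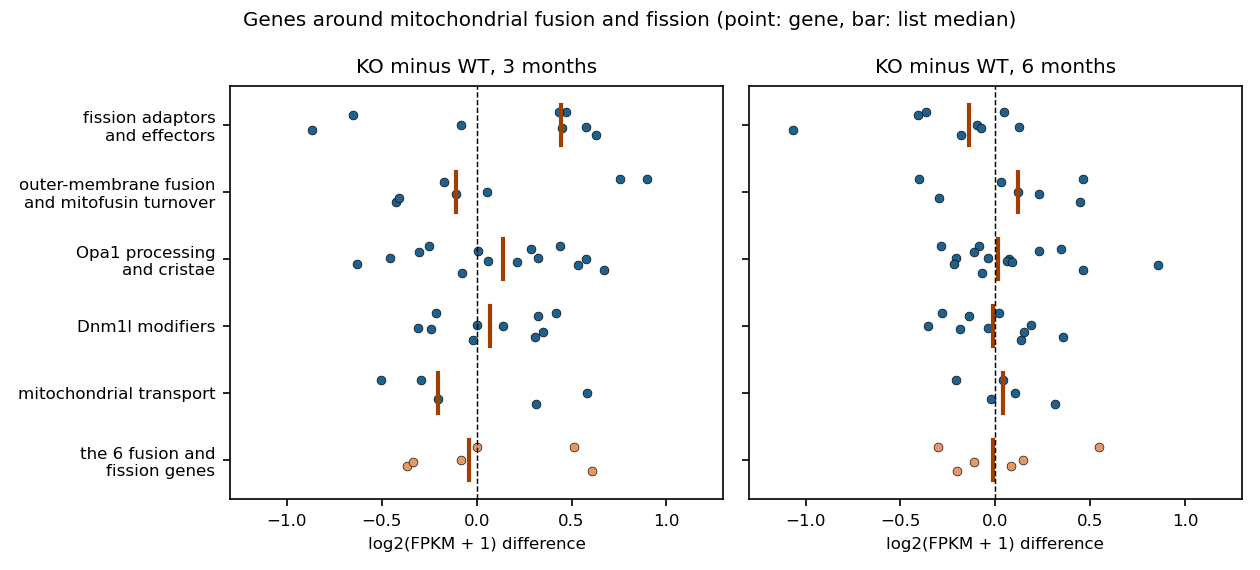
Difference of KO minus WT at 3 and at 6 months on the log2(FPKM + 1) scale (horizontal axes), with 1 point per gene and a bar at the median of each list. List medians lie between -0.21 and 0.44 at 3 months and between -0.14 and 0.12 at 6 months, and no gene shown passed an adjusted p of 0.05.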

How the data were processed

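Transcripts of 100 cumulus cells per mouse were measured by Smart-Seq2 and Nextera XT libraries with 75 bp paired-end reads, per the labels' protocols. The authors deposited FPKM values per gene, on GRCm38 (mm10), with Cufflinks 1.2.1, TopHat2 2.0.10, Bowtie2 2.1.0, SAMtools 0.1.18, cutadapt and FastQC as the tools that the submitters' processing notes name. The sources used here do not name the gene models behind the values. The members and the lists were chosen with earlier results of these data known. Genes were named by rule: all members, the 2 genes of each list with the smallest p over both ages, and the 3 most alike genes per member.

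From the FPKM values, log2(FPKM + 1) was fitted with limma 3.58.1 (R 4.3.3) as 4 group means over 12 libraries, with 8 residual and 3.9 prior degrees of freedom and an intensity trend. P-values are 2-sided and adjusted by Benjamini and Hochberg over 11196 genes, with a threshold of 0.05. Correlations used 100000 resamples. The scripts were tested on simulated data. Depth was estimated from 6639 single-transcript genes longer than 1500 nt, where between 81.1% and 88.2% of low values came within 0.2 of a whole fragment. Fragments carry no molecular identifiers, so this covers counting error only. Gene positions are from GENCODE and promoters from RefSeq (GRCm38.p6). A date stood in place of the symbol in 27 rows, which were matched to no listed gene. Replicate numbers in the labels were checked for pairing: deviations of same-numbered libraries correlated at 0.158, 0.373 and 0.465 in the 6-month groups and at 0.114, 0.394 and 0.653 between ages in KO, and below 0.1 for at least 1 number at 3 months and in WT. Pairing could only be judged from these correlations, as no label states a shared litter or day. The main fit used no pairing. Alternatives were other pseudocounts, filters, scalings, library weights, a replicate block and left-out libraries. A length index as covariate, and left-out libraries for the level order, were added after seeing the data.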

Additional observations from a re-analysis of the deposited data

How the results depend on the processing

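No alternative called a member: over 666 recomputed differences the smallest limma adjusted p was 0.125 (Opa1, 6 minus 3 months in WT). Of these, 55 changed sign, all for differences of at most 0.23 in size. Opa1 and Mff at 3 months, and Mfn2 over both ages, kept their direction in every alternative run, at 0.44 to 0.80, -0.39 to -0.19 and 0.28 to 0.92 on the log2 scale. The filter at 5 FPKM gives no value for Mfn2, the member that depth limits most. Of the 5 neighbouring pairs of the level order, which were sorted from the same values, 4 stayed past the threshold in every alternative run. Mfn1 over Opa1 lost it in 7 of the 12 fits that left out 1 library. No pair of members correlated past the threshold in any alternative run, although r changed sign in at least 1 alternative for 9 of the 15 pairs.

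Counts of genes called, none of them a member, moved by over 1.5 times as follows. At 3 months 1, Clpp, became 0 with a pseudocount of 0.1, without a filter and with a replicate block. At 6 months 3 became 0 with the replicate block, which was fitted on the compared groups alone, a choice that by itself gave 2. Over both ages 2 became 1 without a filter, and for genotype by age 1 became 0 without a filter. For age in WT 1 became 2, and for age in KO 2 became 4, with only the compared groups fitted and equally with the replicate block added. The replicate block called 0 of 36 member differences (smallest adjusted p = 0.477). Leaving out 1 library gave 0 to 9 genes at 3 months, 1 to 5 over both ages, 0 to 3 for genotype by age and 1 to 9 for age in WT, each highest without library 3 of the 3-month WT group.

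Signs turned with quantile normalization for Dnm1l at 3 months (-0.095), Mfn1 over both ages (-0.057), age in WT for Mfn2 (-0.31) and age in KO for Mfn2 (-0.053) and Dnm1l (0.064). With scaling that leaves out small RNA they turned for Mfn1 at 3 months (0.041), Mfn2 for genotype by age (-0.080) and Mfn2 for age in KO (-0.0019). With library weights they turned for Mfn1 at 3 months (0.060), Mff at 6 months (0.013), Mfn1 for genotype by age (-0.031), Fis1 for age in WT (-0.052) and Opa1 for age in KO (0.0098). A pseudocount of 0.1 turned Mfn2 for genotype by age (-0.25), and the length index Fis1 at 6 months (-0.021). Without the 3 libraries high in markers of other cells, Mfn1 at 3 months (0.036), Mff at 6 months (0.053), Mfn1 and Mfn2 for genotype by age (-0.010 and -0.30), Fis1 for age in WT (-0.13), and Mfn2 and Opa1 for age in KO (-0.15 and 0.17) turned. The cause was not tested.

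Leaving out 1 library also turned signs. At 3 months Mfn1 ran from -0.48 to 0.20 and Dnm1l from -0.20 to 0.22. At 6 months Mfn1 ran from -0.060 to 0.28, Opa1 from -0.41 to 0.077 and Fis1 from -0.12 to 0.28. Over both ages Mfn1 ran from -0.17 to 0.17. For genotype by age, Mfn1 ran from -0.052 to 0.63 and Mfn2 from -0.33 to 0.53. Age in WT gave -0.47 to 0.39 for Mfn2 and -0.13 to 0.19 for Fis1. Age in KO gave -0.36 to 0.32 for Mfn1, -0.24 to 0.40 for Mfn2, -0.41 to 0.079 for Opa1 and -0.20 to 0.10 for Dnm1l.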
